A study of Mus musculus with 30 samples.

Results

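This experiment compared NIH3T3-CG cells, a mouse embryonic fibroblast line per the labels, after transfection with a plasmid for the transcription factor Srebf2 and after transfection with a control plasmid. Its members are the 6 libraries that the labels name as the Srebf2 transfection, of 30 in the series: 3 with the Srebf2 plasmid and 3 with its own control plasmid. The other 18 transfection libraries received plasmids for Prrx1, Snai1, Egr1 or Jun or the controls of those plasmids, and the remaining 6 were transduced with Prrx1 and kept with or without doxycycline. Total RNA was taken from the cells on multi-well plates and sequenced in bulk as mRNA libraries. The series addresses, per its title, how changing levels of transcription factors relate to the variable response of single cells to Hedgehog signalling. Both groups were transfected cells of 1 line. Plasmid amounts, times after transfection, the form of Srebf2 that the plasmid codes for and the origin of the replicates are not given in the sources used here, so each p-value rests on how much these libraries varied, and that variation may be purely technical. The RNA was measured in bulk, so a large change in some cells and a smaller change in all cells cannot be told apart.

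Srebf2 codes for SREBP2, a transcription factor made as a precursor that is anchored in the membrane of the endoplasmic reticulum. When sterols are low, the escort protein Scap carries the precursor to the Golgi, where the site-1 protease (Mbtps1) and the site-2 protease (Mbtps2) release its active amino-terminal part. When sterols are plentiful, the Insig proteins hold Scap in the endoplasmic reticulum. Active SREBP2 binds sterol regulatory elements near genes of cholesterol synthesis and uptake. In fibroblasts the same sterol pool also feeds Hedgehog signalling, because Smoothened responds to cholesterol and oxysterols.

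The libraries held 18572126, 21096407 and 21352598 estimated counts with the Srebf2 plasmid, against 18976760, 19538896 and 20379388 with the control plasmid. Markers of fibroblasts summed to 26570 to 28930 CPM (counts scaled to the size of the library) in Srebf2-plasmid libraries, against 25320 to 28610 CPM in control-plasmid libraries. Summed markers of immune, endothelial, epithelial, neural, muscle and adipose cells lay between 0.641 and 12.8 CPM per type with the Srebf2 plasmid, against 0.449 and 15.04 CPM with the control plasmid, and Epcam, Krt18, Emcn, Adgre1, Myod1, Myog, Adipoq, Cebpa and Lep were listed at 0 throughout. Some library measures separated the groups. The count-weighted GC content of the RNA was 49.97%, 49.88% and 49.76% with the Srebf2 plasmid, against 50.33%, 50.37% and 50.27% with the control plasmid. The mean fragment length implied by the effective lengths was 221, 223 and 226 bases with the Srebf2 plasmid, against 246, 228 and 230.3 bases with the control plasmid. The mitochondrial share was 3.93%, 3.63% and 3.65% of counts with the Srebf2 plasmid, against 2.91%, 2.90% and 3.20% with the control plasmid. In none of these 3 measures did the groups overlap (exact two-sided permutation test p = 0.1 for each, the smallest p that 3 against 3 can give). The noncoding share and the number of targets with counts were also apart. Total counts, the retained-intron share, the share of the most abundant genes and the count-weighted length overlapped.

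Srebf2 itself was the check of the labels. It stood at 2467, 2313 and 2615 CPM in Srebf2-plasmid libraries and at 569.9, 596 and 596 CPM in control-plasmid libraries. The groups lay far apart, with a log2 fold change of 2.07 (SE 0.06, adjusted p = 5.47e-14, edgeR's quasi-likelihood test with Benjamini-Hochberg adjustment). The gene lies on chr15:82147181-82205379 of GRCm38 on the plus strand, and 7 of its transcripts were in the quantification index. The full-length coding transcript Srebf2-201 took 87.7%, 89.5% and 89.2% of the gene's counts in Srebf2-plasmid libraries, against 93.0%, 94.0% and 93.9% in control-plasmid libraries. The shorter coding transcript Srebf2-203 took 6.97%, 5.54% and 6.04% with Srebf2, against 0.455%, 0.549% and 0.380% with control, and its log2 fold change was 5.84 (SE 0.17, adjusted p = 0.00034). Srebf2-205, a transcript with a retained intron, took a smaller share with the Srebf2 plasmid, at 2.51%, 2.66% and 2.89%, against 5.13%, 4.42% and 4.17% with the control plasmid. Its own level was higher, at 61.1, 62.7 and 78.0 CPM with Srebf2, against 29.1, 26.3 and 24.9 CPM with control. The counts do not separate plasmid-derived from genomic Srebf2 RNA.

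**Figure D1:**
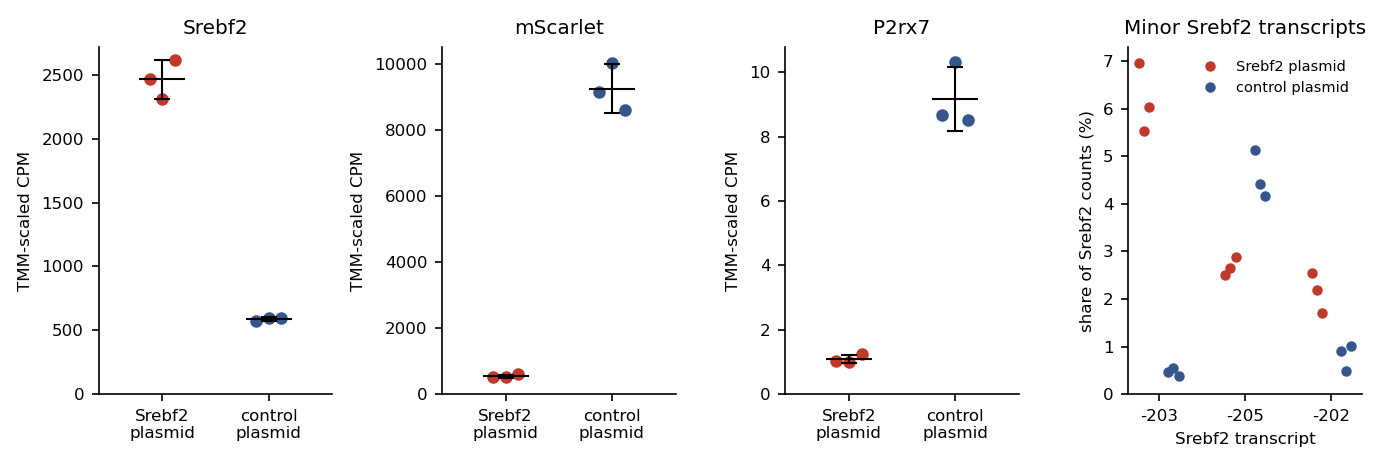
Level of Srebf2, mScarlet and P2rx7 in each library (CPM, linear axes from 0), Srebf2-plasmid libraries left of control-plasmid libraries, with 1 point per library and the group mean ± SD (n = 3), and at the right the share of Srebf2 counts assigned to 3 minor Srebf2 transcripts. Srebf2 lies at 2313 to 2615 CPM with its plasmid and at 569.9 to 596 CPM with the control plasmid, mScarlet and P2rx7 lie far lower with the Srebf2 plasmid, and transcript Srebf2-203 takes a larger share with it while Srebf2-205 takes a smaller one.

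The sequences of mScarlet and P2rx7 fell by more than 4-fold. Counts assigned to mScarlet, a red fluorescent protein whose sequence was added to the quantification index, were 507, 512 and 596 CPM with the Srebf2 plasmid, against 9131, 10031 and 8591 CPM with the control plasmid. The log2 fold change was -4.10 (SE 0.08, adjusted p = 4.66e-15). P2rx7, the ATP-gated ion channel P2X7, had 1.03, 1.01 and 1.23 CPM with the Srebf2 plasmid and 8.69, 10.3 and 8.53 CPM with the control plasmid. Its log2 fold change was -3.06 (SE 0.19, adjusted p = 1.85e-08). Both sequences were lower in all 3 Srebf2-plasmid libraries than in any control-plasmid library. GFP, the other added sequence, was at 166, 158 and 174 CPM with Srebf2, against 184, 194 and 199 CPM with control, and fell slightly (log2 fold change -0.21, adjusted p = 0.0101), a call lost without the second (adjusted p = 0.0543) or the third (0.0533) control-plasmid library or the second Srebf2-plasmid library (0.0751). With the other plasmids, measured against their own controls, mScarlet changed by -3.89 with Egr1, -3.49 with Jun, 0.32 with Prrx1 and -0.10 with Snai1 on the log2 scale, and P2rx7 by -0.64 with Egr1, -1.97 with Jun, 1.96 with Prrx1 and -0.08 with Snai1. Which plasmids, if any, carry mScarlet, GFP or P2rx7 sequence is not given in the sources used here. The counts do not show whether reads assigned to P2rx7 came from the cell's own gene.

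Across all genes the comparison showed many changes, most of them small. Of 12730 genes tested, 2204 passed an adjusted p under 0.05, which is 17.3%. Of these, 1099 were higher with the Srebf2 plasmid (8.63% of genes tested) and 1105 were lower (8.68%). The median size of a called change was 1.21-fold. A change of under 1.2-fold accounted for 1044 of the called genes (47.4%), 158 exceeded 1.5-fold (7.17%) and 72 exceeded 2-fold, 25 higher and 47 lower. Of those 72 genes, 43 shared more than 10% of their 31-base words with another gene, so their counts depend on how reads were divided between copies. Under an unadjusted p under 0.05 there were 3955 genes, and in 4525 genes (35.5%) the 3 libraries of 1 group all lay above the 3 of the other. The number of called genes rested in part on single libraries: it was 996 without the second control-plasmid library, 1132 without the second Srebf2-plasmid library and 1411 without the third, and 806 of the 2204 genes were called in all 6 fits that left a library out.

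Genes of the sterol pathway moved little beside the 4.20-fold change of Srebf2. Of 22 cholesterol synthesis genes tested, 5 were higher and 3 were lower, against 8.63% and 8.68% of all tested genes, and the median log2 fold change of the list was 0.09, against 0.01 for all tested genes. The 5 that rose were Hmgcs1, Idi1, Msmo1, Nsdhl and Dhcr7, and the 3 that fell were Pmvk, Tm7sf2 and Mvd. All 8 changed by less than 1.5-fold. Idi1, Msmo1, Pmvk and Tm7sf2 stayed past the threshold whichever library was left out. Hmgcs1 missed it without the second Srebf2-plasmid library (adjusted p = 0.0585), and Mvd without the second control-plasmid library (0.105) or the second (0.0646) or the third (0.0805) Srebf2-plasmid library. Dhcr7 missed it in all 6 such fits (adjusted p between 0.0539 and 0.153) and Nsdhl in 5 of them (the highest 0.154), the exception being the fit without the first Srebf2-plasmid library. The list and all other gene lists were chosen with earlier results of these libraries known.

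Taken in the order of the pathway, Hmgcs1, which makes HMG-CoA, had 505, 537 and 533 CPM with the Srebf2 plasmid and 444, 459 and 461 CPM with the control plasmid. The groups did not overlap, and the log2 fold change was 0.21 (SE 0.05, adjusted p = 0.00727). The mevalonate enzymes Pmvk, a kinase, and Mvd, a decarboxylase, went the other way. Pmvk had 38.2, 36.6 and 33.6 CPM with the Srebf2 plasmid and 48.3, 53.2 and 46.4 CPM with the control plasmid (log2 fold change -0.45, SE 0.07, adjusted p = 0.000583). Mvd had 107, 102 and 95.5 CPM with Srebf2, against 115, 121 and 114 CPM with control (log2 fold change -0.20, SE 0.06, adjusted p = 0.0204). Both were lower in all 3 Srebf2-plasmid libraries. Idi1, the isomerase that readies isoprene units for chain growth, had 471, 516 and 559 CPM with the Srebf2 plasmid and 402, 435 and 449 CPM with the control plasmid. Its groups did not overlap (log2 fold change 0.27, SE 0.06, adjusted p = 0.00836), though only 81.2% of its 31-base words occur in no other gene.

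In the later, sterol-forming steps, Sqle, the squalene epoxidase, had 548, 577 and 613 CPM with the Srebf2 plasmid and 518, 556 and 561 CPM with the control plasmid. Its groups overlapped (log2 difference 0.09, SE 0.05, adjusted p = 0.28). Cyp51, the lanosterol demethylase, had 734, 764 and 800.1 CPM with Srebf2, against 698, 699 and 713 CPM with control, with no overlap but short of the threshold (log2 difference 0.12, SE 0.05, adjusted p = 0.0978). Tm7sf2, a sterol reductase that acts on the next intermediate, fell to 59.2, 54.7 and 58.2 CPM with the Srebf2 plasmid, against 70.9, 75.6 and 75.6 CPM with the control plasmid (log2 fold change -0.37, SE 0.06, adjusted p = 0.000524). Lbr, the lamin B receptor, which carries the same reductase activity, was at 107, 112 and 102 CPM with Srebf2, against 123, 114 and 112 CPM with control and did not pass the test (log2 difference -0.12, adjusted p = 0.145). Msmo1, the methylsterol oxidase, rose to 367, 390.1 and 420.1 CPM with the Srebf2 plasmid, against 326, 314 and 342 CPM with the control plasmid (log2 fold change 0.26, SE 0.06, adjusted p = 0.00413). Nsdhl, a sterol dehydrogenase that acts with it, was at 218, 234 and 239.9 CPM with Srebf2, against 206, 203 and 211 CPM with control, and Dhcr7, which carries out a final step to cholesterol, at 41.0, 39.2 and 42.1 CPM with Srebf2, against 35.3, 34.1 and 36.4 CPM with control. Both rose by small amounts, Nsdhl by 0.16 (adjusted p = 0.0366) and Dhcr7 by 0.21 (adjusted p = 0.0352) on the log2 scale. Fdps, Fdft1, Lss, Sc5d, Ebp, Hsd17b7, Mvk, Ggps1 and Acat2 did not pass the test.

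**Figure D2:**
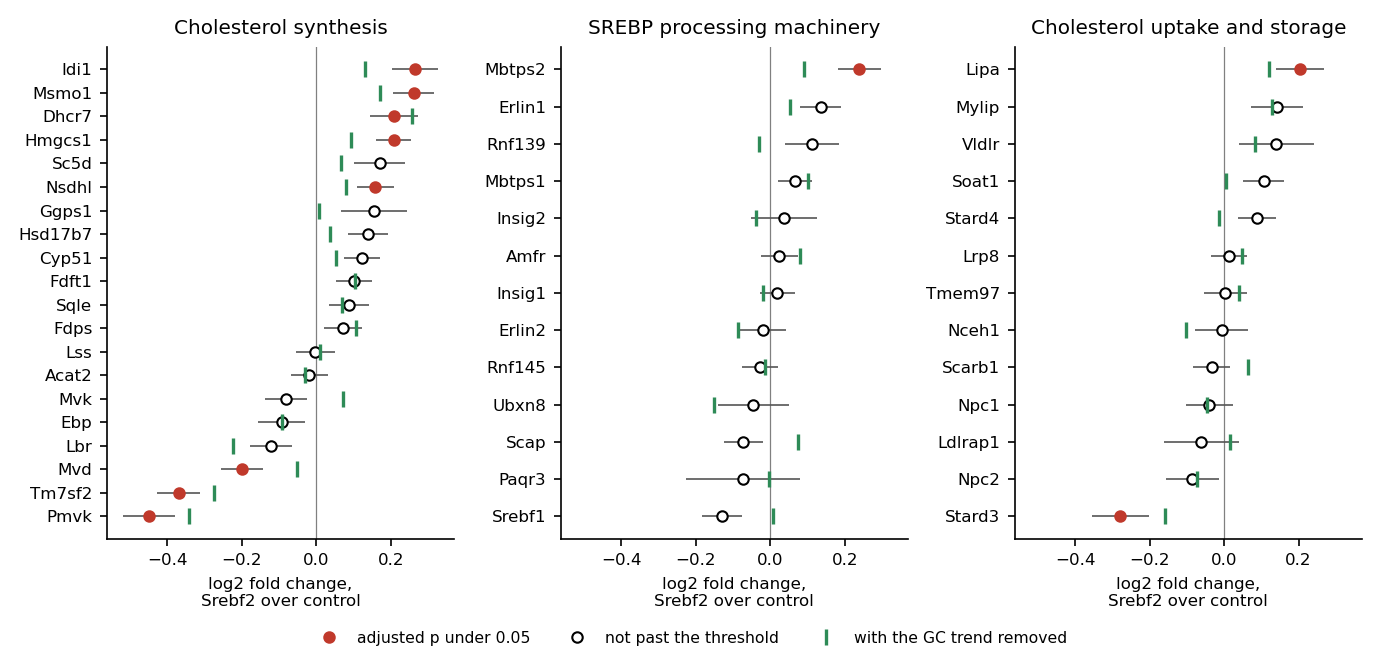
Log2 fold change (Srebf2 plasmid over control plasmid, points with SE bars) of the genes reported here of cholesterol synthesis, of the SREBP machinery without Srebf2 itself and of cholesterol uptake and storage, filled where the adjusted p was under 0.05, with green marks for the value with the GC trend removed. Pmvk and Tm7sf2 lie lowest and Idi1 and Msmo1 highest, and removing the trend moves Hmgcs1 (43.4% GC) down and Mvd (59.3% GC) up.

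Among the genes that control SREBP2 activity, 2 of 14 tested were higher and none was lower, against 8.63% and 8.68% of all tested genes. These were Srebf2, the delivered gene itself, and Mbtps2, the site-2 protease, so that 1 of the other 13 was called, a share near that of all genes. Mbtps2 had 55.9, 52.0 and 56.7 CPM with the Srebf2 plasmid and 45.8, 47.0 and 46.6 CPM with the control plasmid (log2 fold change 0.24, SE 0.06, adjusted p = 0.00999), with 68.9% of its 31-base words unique to it. Insig1, which retains Scap and is itself an established SREBP target, was at 426, 435 and 428 CPM with Srebf2, against 422, 429.8 and 419 CPM with control. Its groups overlapped, and the log2 difference was 0.02 (SE 0.05, adjusted p = 0.81). Srebf1, the paralogue, was at 67.5, 67.7 and 65.0 CPM with Srebf2, against 72.0, 73.5 and 73.5 CPM with control (log2 difference -0.13, adjusted p = 0.103). Scap had 115, 114 and 124 CPM with Srebf2, against 126, 123 and 123 CPM with control and did not pass the test either (adjusted p = 0.367).

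Of the cholesterol uptake and storage list, 14 of 15 genes could be tested. Lipa, the lysosomal acid lipase that frees cholesterol from esters, was the 1 gene that rose (95.0, 97.7 and 112 CPM with Srebf2, against 85.1, 92.5 and 87.0 CPM with control, log2 fold change 0.20, adjusted p = 0.0359). Stard3, a sterol carrier of late endosomes, was the 1 that fell (25.3, 26.2 and 29.3 CPM with Srebf2, against 33.5, 31.5 and 33.0 CPM with control, log2 fold change -0.28, adjusted p = 0.0197). Each direction thus held 7.14% of the genes tested, near the 8.63% of all tested genes that were higher and the 8.68% that were lower. The list's median log2 fold change was -0.00. Neither call was stable: that of Lipa was lost in 5 of the 6 fits that left a library out (adjusted p up to 0.167, without the third Srebf2-plasmid library; it held without the first) and that of Stard3 in 4 (up to 0.0772, without the second Srebf2-plasmid library; it held without the third and without the second control-plasmid library).

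Promoter windows from RefSeq (GRCm38.p6, 250 bases before to 50 after each gene start) were found for 36 of the 51 genes in these 3 lists, 51 windows in all. Each was searched on both strands for TCACNCCAC, letters of a sterol regulatory element. The letters occurred in the windows of Hmgcs1, which rose, and Stard3, which fell. In Hmgcs1 the match began 137 bases before the gene start, and in Stard3 it began 211 bases before it. The windows are shown with the match in capitals, beside that of Idi1, the cholesterol synthesis gene with the highest log2 fold change, which holds no match.
Hmgcs1, chr13:119690101-119690400, plus strand: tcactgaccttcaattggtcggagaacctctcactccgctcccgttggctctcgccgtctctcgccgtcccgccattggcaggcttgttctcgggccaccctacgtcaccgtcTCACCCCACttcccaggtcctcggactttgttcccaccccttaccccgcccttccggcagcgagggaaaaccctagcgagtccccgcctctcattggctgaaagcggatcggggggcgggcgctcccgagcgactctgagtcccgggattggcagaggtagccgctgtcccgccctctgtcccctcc
Stard3, chr11:98358118-98358417, plus strand: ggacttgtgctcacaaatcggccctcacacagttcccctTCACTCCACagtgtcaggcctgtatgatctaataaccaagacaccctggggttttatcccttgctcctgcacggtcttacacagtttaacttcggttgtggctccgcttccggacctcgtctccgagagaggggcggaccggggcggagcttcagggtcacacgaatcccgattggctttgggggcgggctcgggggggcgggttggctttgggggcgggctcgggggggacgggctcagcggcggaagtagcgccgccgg
Idi1, chr13:8885356-8885655, plus strand: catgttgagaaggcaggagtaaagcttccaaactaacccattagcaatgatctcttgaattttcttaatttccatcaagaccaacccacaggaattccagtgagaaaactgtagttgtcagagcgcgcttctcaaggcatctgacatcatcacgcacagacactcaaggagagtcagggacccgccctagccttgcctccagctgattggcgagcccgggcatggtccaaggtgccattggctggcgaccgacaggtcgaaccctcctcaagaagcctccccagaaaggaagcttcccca
The letters were in 408 of all 32851 promoter windows (1.24%), in 137 of the 12301 windows of tested genes (1.11%), in 10 of 1062 windows of genes that were higher (0.942%) and in 8 of 1099 windows of genes that were lower (0.728%). Tested genes with the letters had a median log2 fold change of -0.01. A match of letters does not show binding.

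Other lipid genes were similar in size of change. Of 22 tested genes of fatty acid and glycerolipid synthesis, of 28 listed, 5 were higher (22.7%) and none was lower (Elovl5, Elovl6, Acsl3, Acsl4 and Scd1), against 8.63% higher and 8.68% lower of all tested genes, with a list median of 0.10. Without the second control-plasmid library 2 were higher, and without the second Srebf2-plasmid library 3. The call of Acsl4, which activates long-chain fatty acids, was lost without either of them (adjusted p = 0.0714 and 0.0854). Elovl5, an elongase of polyunsaturated fatty acids, had 89.0, 94.5 and 93.6 CPM with the Srebf2 plasmid and 72.1, 75.9 and 73.9 CPM with the control plasmid (log2 fold change 0.32, SE 0.05, adjusted p = 0.000877). Elovl6, an elongase of saturated fatty acids, had 176, 184 and 198 CPM with Srebf2, against 160.0, 155 and 163 CPM with control (log2 fold change 0.22, adjusted p = 0.00797, or 0.0592 without the second control-plasmid library). Neither pair of groups overlapped. Of 6 tested genes of sterol efflux and the liver X receptor, none was higher and 2 were lower: Apoe, the lipid-carrying apolipoprotein E, at 4.45, 3.74 and 4.97 CPM with Srebf2, against 6.84, 7.12 and 7.30 CPM with control (log2 fold change -0.69, adjusted p = 0.00529), and Nr1h2, the receptor LXR-beta (log2 fold change -0.20, adjusted p = 0.0314). The call of Nr1h2 held in 1 of the 6 fits that left a library out, the one without the first Srebf2-plasmid library. Of 4 tested oxysterol and bile acid enzymes, 1 fell: Hsd3b7, a sterol dehydrogenase (log2 fold change -0.34, adjusted p = 0.00595, 45.2% of its 31-base words unique).

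Hedgehog pathway genes, which the series is about, showed 1 call, lower, among 28 tested (3.57%), beside the 8.68% of all tested genes that were lower. Without the first Srebf2-plasmid library 2 were higher and 3 were lower, and in each other fit that left a library out none was higher and 1 was lower. Ptch1, the Hedgehog receptor and a target of the pathway, was at 24.4, 24.4 and 25.6 CPM with Srebf2, against 24.8, 24.2 and 25.1 CPM with control (log2 difference 0.01, SE 0.07, adjusted p = 0.968). Gli1, the target that most directly reports pathway activity, was at 5.32, 4.26 and 3.08 CPM with Srebf2, against 4.37, 3.20 and 3.70 CPM with control (log2 difference 0.16, SE 0.21, adjusted p = 0.637). In both genes the groups overlapped. Smo had 224, 229 and 223 CPM with Srebf2, against 238, 229 and 234 CPM with control (adjusted p = 0.467), and the transcription factors Gli2 (adjusted p = 0.764) and Gli3 (adjusted p = 0.371) did not pass the test. Of 39 tested genes of primary cilium assembly and transport, 7 were higher (17.9%, against 8.63% of all tested genes) and 2 were lower (5.13%), with a median of 0.09. Kifap3, the adaptor of the kinesin that moves cargo into the cilium, rose to 115, 114 and 121 CPM with the Srebf2 plasmid, against 88.1, 96.5 and 94.8 CPM with the control plasmid (log2 fold change 0.33, SE 0.05, adjusted p = 0.000872). Arl3, a small GTPase that releases lipidated cargo in the cilium, fell to 41.9, 41.5 and 39.7 CPM with Srebf2, against 50.4, 53.6 and 46.1 CPM with control (log2 fold change -0.29, adjusted p = 0.00744, or 0.0606 without the second control-plasmid library). Without the second control-plasmid library, 3 cilium genes were higher and none was lower, and with the GC trend described further on removed, 3 were higher and 1 was lower.

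The many small changes were ordered by the GC content of the transcripts. The genes were cut into 10 bins of equal size. Across 12715 tested genes with a known sequence, the log2 fold change and the GC content had a Spearman correlation of -0.48. This is a description across genes that share the same 6 libraries, and genes are not independent replicates. In the bin of genes with the lowest GC content (30.9% to 41.7%), 299 were higher and 12 were lower, with a median log2 fold change of 0.16. In the middle, between 50.1% and 52.0% GC, 49 were higher and 80 were lower. In the bin with the highest GC content (58.1% to 74.7%), 2 were higher and 340 were lower, with a median of -0.16. The medians fell at each step between neighbouring bins.

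**Figure D3:**
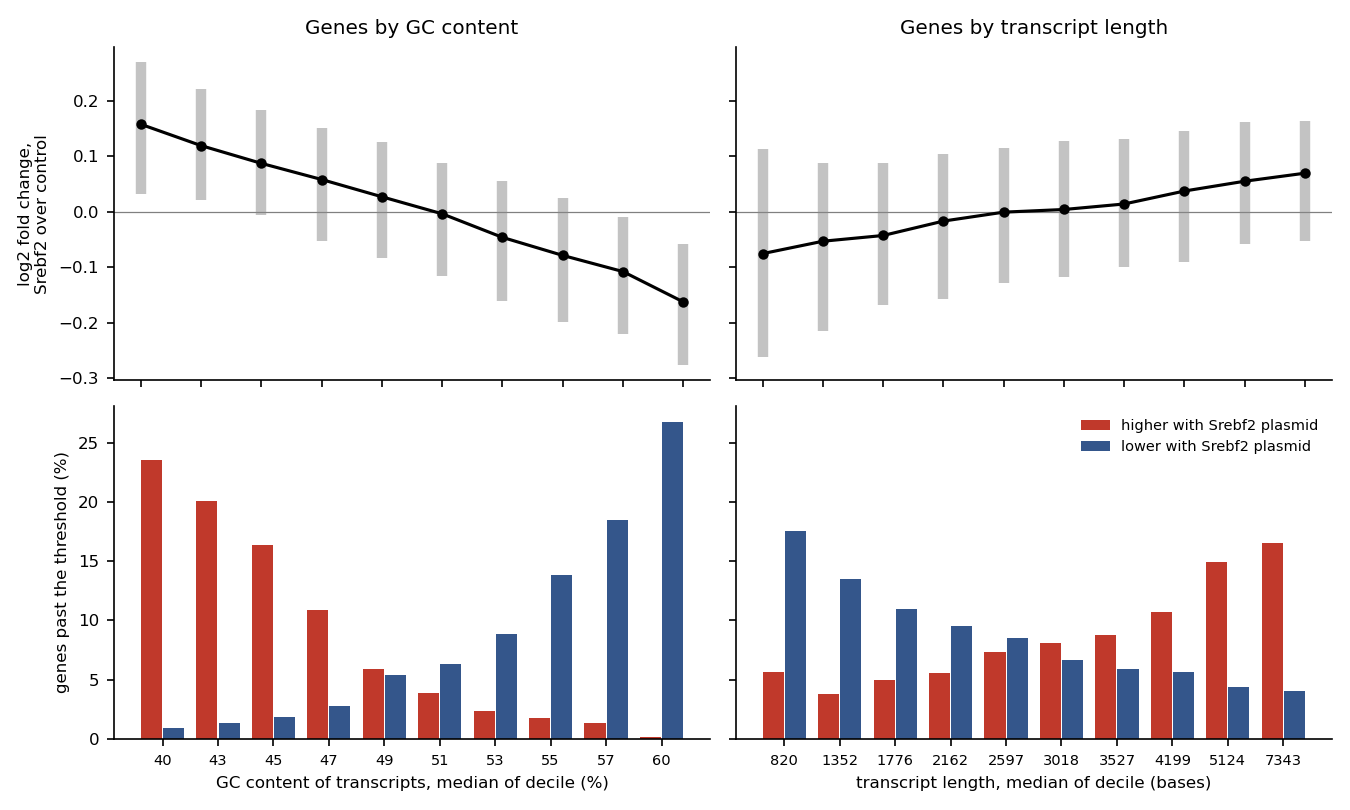
Top, median log2 fold change (Srebf2 plasmid over control plasmid) with the interquartile range as grey bars, and bottom, percentage of genes past the threshold in each direction, in 10 equal bins of the tested genes ordered by GC content (left) and by transcript length (right). The median is 0.16 at the lowest and -0.16 at the highest GC content, and -0.08 for the shortest and 0.07 for the longest transcripts.

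The same ordering was seen in single libraries. Each log2 level was first taken as its deviation from the gene's mean over the 6 libraries. Slopes of these deviations on GC content, per 10 percentage points, were fitted with length as a second term. They were -0.0281, -0.0716 and -0.125 in Srebf2-plasmid libraries, against 0.0870, 0.0827 and 0.0546 in control-plasmid libraries. The mean slopes of the groups are opposite in sign by construction, and only their difference is a result. The groups did not overlap, and the difference was -0.150 (exact two-sided permutation test p = 0.1, the smallest p that 3 against 3 can give). The third Srebf2-plasmid library was farthest from the controls and the first was nearest. The corresponding differences with the other plasmids, each against its own controls, were 0.0399 with Prrx1, 0.101 with Snai1, -0.0130 with Egr1 and -0.0342 with Jun, and -0.0409 for Prrx1 induced with doxycycline. Prrx1 and Snai1 share their controls, as do Egr1 and Jun. The count-weighted GC content given above is computed from the same counts, so it restates the trend. The fragment length of the libraries also differed between the groups, as given above, and its part in the trend was not tested.

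Transcript length had a weaker relation. The Spearman correlation of the log2 fold change with length was 0.19 over 12730 genes, and length and GC content were themselves correlated at -0.22. In the bin of genes with the shortest transcripts (up to 1117 bases), 72 were higher and 223 were lower, with a median of -0.08. In the bin with the longest (from 5975 bases), 211 were higher and 52 were lower, with a median of 0.07. Slopes on length were again taken on deviations from each gene's mean over the 6 libraries, so the group means are opposite in sign by construction. Per doubling of length, the slopes were 0.0255, 0.00773 and 0.00741 in Srebf2-plasmid libraries, against -0.00989, -0.0273 and -0.00346 in control-plasmid libraries. The groups did not overlap (difference 0.0271, exact two-sided permutation test p = 0.1). With GC content as a second term the difference was 0.00662 and the groups overlapped (exact p = 0.6). Without the GC term, the difference was -0.0165 with the Prrx1 plasmid and -0.0297 with Snai1, each against its own controls. It was 0.0145 with Egr1, 0.0243 with Jun and 0.0552 for Prrx1 induced with doxycycline. The groups overlapped in each of these other comparisons. Splitting the genes by both properties showed the order by GC content within each of 3 classes of length: among long genes the median was 0.13 at low GC content (478 higher, 9 lower, of 1844) and -0.09 at high GC content (7 higher, 159 lower, of 994), and among short genes it was 0.07 (106 higher, 36 lower, of 1015) and -0.13 (36 higher, 393 lower, of 1827). The same split also showed an order by length within each class of GC content. From short to long genes the medians were 0.07, 0.11 and 0.13 at low GC content, -0.03, 0.01 and 0.04 at middle GC content and -0.13, -0.10 and -0.09 at high GC content.

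Within genes the relation to length had the opposite sign. The longest and the shortest transcript of a gene were compared where they differed at least 2-fold in length, which held for 4667 genes. Each averaged 1 CPM or more in at least 1 group, so it could be at 0 in the other group. How reads were divided between transcripts enters these values. The longer one had the lower log2 fold change by a median of 0.07 (-0.07, longer minus shorter), and it had the higher one in 2155 genes (46.2%). Library by library, the log2 difference between the 2 transcripts was taken relative to its mean over the 6 libraries. The median of these values was -0.0800, -0.0357 and -0.0141 with the Srebf2 plasmid, against 0.0372, 0.00921 and 0.00184 with the control plasmid. The groups did not overlap (exact two-sided permutation test p = 0.1).

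**Figure D4:**
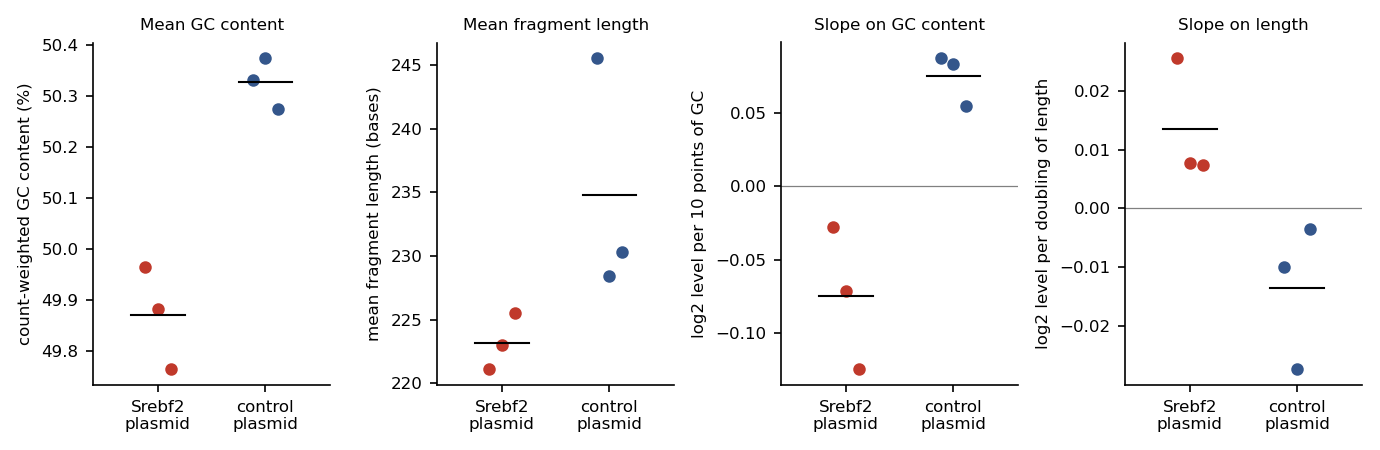
Mean GC content, mean fragment length and the slopes of log2 level on GC content and on length in the 3 Srebf2-plasmid libraries (left in each panel) and the 3 control-plasmid libraries (right), with 1 point per library and a line at the group mean. The slopes use log2 levels minus each gene's mean over the 6 libraries, so only their difference between the groups has meaning. The groups do not overlap in any of the 4 measures, and the axes do not start at 0.

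When the trend with GC content was removed from each library, 1066 genes were called, 494 higher (3.89% of 12715) and 572 lower (4.50%), and 805 of them were among the 2204. In the bin of lowest GC content 37 were then higher and 35 lower, and in the bin of highest GC content 42 and 58. A more even split within these bins follows from the removal itself. For the sterol genes removing the trend left 3 higher and 3 lower among the 22 of cholesterol synthesis. Dhcr7 (log2 fold change 0.26, adjusted p = 0.0196) and Msmo1 (0.17, adjusted p = 0.0421) were still higher. Pmvk (-0.34, adjusted p = 0.00358) and Tm7sf2 (-0.27, adjusted p = 0.00547) were still lower, joined by Lbr (-0.22, adjusted p = 0.0195). Hmgcs1 (0.09, adjusted p = 0.217), Idi1 (0.13, adjusted p = 0.145), Nsdhl (0.08, adjusted p = 0.314), Mvd (-0.05, adjusted p = 0.572), Mbtps2 (0.09, adjusted p = 0.352), Lipa (0.12, adjusted p = 0.228) and Stard3 (-0.16, adjusted p = 0.241) were no longer called. Insig1, not called in either fit, was at -0.02 (adjusted p = 0.855), against 0.02 as counted. Among fatty acid genes 1 of the 5 calls was left, Elovl5 (0.23, adjusted p = 0.00995), and among Hedgehog genes none.

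The largest changes among well-measured protein-coding genes reached under 2-fold on the rising side apart from Srebf2. Ifi44, an interferon-induced gene, had 12.5, 10.4 and 9.9954 CPM with the Srebf2 plasmid and 4.79, 6.55 and 8.09 CPM with the control plasmid (log2 fold change 0.75, SE 0.16, adjusted p = 0.0056). Osmr, the oncostatin M receptor, had 68.8, 69.8 and 68.5 CPM with Srebf2, against 44.6, 47.0 and 49.7 CPM with control (log2 fold change 0.55, SE 0.06, adjusted p = 2.45e-05). The groups of both genes were apart. Ednra, an endothelin receptor, was at 4.73, 4.93 and 5.73 CPM with Srebf2, against 2.53, 3.25 and 3.80 CPM with control (log2 fold change 0.68, SE 0.19, adjusted p = 0.0183), and Plagl1, a zinc finger transcription factor, at 11.1, 13.0 and 12.6 CPM with Srebf2, against 9.0011, 7.12 and 8.33 CPM with control (log2 fold change 0.59, adjusted p = 0.00308). The call of Ednra was lost without the first (adjusted p = 0.0737) or second (0.0612) control-plasmid library or the third Srebf2-plasmid library (0.0784). Of the other 7 in the 12 largest rises, Cenpk, Kif20b and Lin9 have roles at the centromere, in cytokinesis or in the transcription of mitotic genes, and Bcs1l assembles complex III of the respiratory chain. The log2 fold changes were 0.66 for Cenpk, 0.50 for Kif20b, 0.48 for Lin9, 0.48 for Bcs1l, 0.50 for Zfp40 and 0.49 for Ccdc18. Zfp40 and Ccdc18 were no longer called with the GC trend removed. The call of Ccdc18 was also lost without the second (adjusted p = 0.105) or the third (0.0557) control-plasmid library or the second Srebf2-plasmid library (0.119).

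On the falling side, Pfdn6, a subunit of the prefoldin chaperone, followed P2rx7, with 17.9, 19.8 and 20.5 CPM with the Srebf2 plasmid and 42.2, 37.0 and 29.6 CPM with the control plasmid (log2 fold change -0.90, SE 0.11, adjusted p = 0.000401). Lars2, the mitochondrial leucyl-tRNA synthetase, had 649.8, 533 and 694 CPM with Srebf2, against 1070.5, 1271 and 1044 CPM with control (log2 fold change -0.85, SE 0.12, adjusted p = 0.00431). H2afj, a histone H2A variant, had 27.4, 26.6 and 25.5 CPM with Srebf2, against 44.2, 50.6 and 41.0 CPM with control (log2 fold change -0.77, SE 0.08, adjusted p = 2.43e-05). In none of the 3 did the groups overlap. Tnfrsf12a, the receptor of the cytokine TWEAK, fell to 123, 128 and 112 CPM with Srebf2, against 228, 199.8 and 181 CPM with control (log2 fold change -0.74, SE 0.08, adjusted p = 0.000213). The remaining 7 of the 12 largest falls were Smim4, Col7a1, Ndufa2, Apoe, Churc1, Cyb561d2 and Plcxd2, between -0.72 and -0.67. Leaving out a library ended the call of Churc1 (the second control-plasmid or the first or the third Srebf2-plasmid library, adjusted p up to 0.0967) and of Col7a1 (the second or the third library of either group, adjusted p up to 0.116). Of the 12, Col7a1 was the 1 that was no longer called with the GC trend removed (log2 difference -0.52, adjusted p = 0.114).

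Several gene groups outside lipid metabolism moved mostly one way. Of 13 mitochondrially encoded genes, 8 were higher (61.5%) and none was lower, beside 8.63% and 8.68% of all tested genes. All 13 genes had log2 differences above 0, with a median of 0.36. Their median GC content was 37.1%, against 50.1% for all tested genes. mt-Nd5, a subunit of complex I, had 2312, 2287 and 2245 CPM with the Srebf2 plasmid and 1647, 1641 and 1776 CPM with the control plasmid (log2 fold change 0.43, SE 0.05, adjusted p = 8.65e-05). mt-Atp6, a subunit of ATP synthase, had 3161, 3457 and 3926 CPM with Srebf2, against 2446, 2332 and 2599 CPM with control (log2 fold change 0.52, adjusted p = 0.000435), although 0.461% of its 31-base words occur in no other gene. With the GC trend removed, 4 of the 13 were called and the median was 0.15. With the other plasmids the medians of the same genes ran from -0.86 with Prrx1 and with Snai1 to 0.22 with Egr1 and 0.29 with Jun, against the controls of each pair. The nuclear genes of the respiratory chain differed from these: of 75 tested, 2 were higher (2.67%) and 30 were lower (40.0%). Their median was -0.10 and their median GC content was 52.0%. Ndufa2, a small subunit of complex I, fell to 27.6, 29.8 and 26.9 CPM with Srebf2, against 48.9, 48.4 and 39.7 CPM with control (log2 fold change -0.70, SE 0.08, adjusted p = 8.18e-05). Without the second control-plasmid library, none of the 75 was higher and 16 were lower, without the first Srebf2-plasmid library 5 were higher and 24 were lower, and with the GC trend removed 1 was higher and 24 were lower. With the length trend removed 4 were higher and 21 were lower, with a median of -0.06.

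Of 79 cytosolic ribosomal protein genes, 2 were higher (2.53%) and 35 were lower (44.3%), with a median of -0.13. Among all tested genes, 8.63% were higher and 8.68% were lower. Rpl36a, of the large subunit, had 153, 151 and 169.5 CPM with the Srebf2 plasmid and 233, 254 and 219.9 CPM with the control plasmid (log2 fold change -0.58, SE 0.06, adjusted p = 2.54e-05, 74.1% of its 31-base words unique). Fau, which codes for a ribosomal protein of the small subunit fused to a ubiquitin-like protein, had 547, 532 and 514 CPM with Srebf2, against 748, 794 and 721 CPM with control (log2 fold change -0.51, adjusted p = 2.21e-05). Many of these genes share sequence with pseudogenes, so their levels depend on how reads were divided. These transcripts are short, with a median of 733 bases. With the length trend removed 9 were higher and 27 were lower, and the median was -0.04. With the GC trend removed 3 were higher and 25 lower. The 23 lower ribosomal genes without the second Srebf2-plasmid library were the fewest of the fits that left a library out, and without the first Srebf2-plasmid library 5 were higher.

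Of 34 replication and mitosis genes, 15 were higher (44.1%) and none was lower, beside 8.63% and 8.68% of all tested genes. The list had a median of 0.11 and a median GC content of 48.8%. Cenpf, a kinetochore protein, had 143, 149 and 134 CPM with the Srebf2 plasmid and 111, 111 and 110.1 CPM with the control plasmid (log2 fold change 0.36, SE 0.05, adjusted p = 0.000435). Ccna2, cyclin A2, had 195, 232 and 205 CPM with Srebf2, against 170.5, 154 and 157 CPM with control (log2 fold change 0.39, SE 0.06, adjusted p = 0.00076). Kif11, the mitotic kinesin Eg5, had 90.2, 102 and 92.1 CPM with Srebf2, against 77.1, 66.9 and 71.8 CPM with control (log2 fold change 0.40, adjusted p = 0.000686). All 3 were higher in every Srebf2-plasmid library. The list had 8 higher genes without the second control-plasmid library, 8 without the second Srebf2-plasmid library and 8 with the GC trend removed, where its median was 0.13. In the fit without the third control-plasmid library 1 was lower. Targets of p53, the tumour suppressor that arrests the cell cycle, went the other way. Of 23 tested, none was higher and 7 were lower (30.4%), and with the GC trend removed 6 were lower. Without the third Srebf2-plasmid library 1 was higher and 8 were lower. Cdkn1a, the cyclin-dependent kinase inhibitor p21, fell to 224, 229 and 235 CPM with the Srebf2 plasmid, against 284, 280.3 and 265 CPM with the control plasmid (log2 fold change -0.27, SE 0.05, adjusted p = 0.00155). Bax, a promoter of apoptosis, fell to 86.0, 89.6 and 84.3 CPM with Srebf2, against 115, 120.0 and 113 CPM with control (log2 fold change -0.42, SE 0.05, adjusted p = 0.00011).

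Immediate early genes, which cells induce within minutes of a stimulus, were lower where they were called. Of 31 tested, none was higher and 9 were lower (29.0%, against 8.68% of all tested genes), with a median of -0.23. Their median GC content was 54.4%, and with the GC trend removed 5 were lower and the median was -0.13. Jun, a subunit of the AP-1 transcription factor, fell to 194, 187 and 176 CPM with Srebf2, against 254, 221 and 236 CPM with control (log2 fold change -0.35, SE 0.06, adjusted p = 0.000699). Ier5, a serum-induced gene, fell to 103, 99.4 and 98.1 CPM with Srebf2, against 152, 133 and 133 CPM with control (log2 fold change -0.47, SE 0.06, adjusted p = 8.65e-05). In both the groups were apart. Interferon response genes were higher where they were called, with 4 of 24 higher (16.7%, against 8.63% of all tested genes), none lower and a median of 0.29. In the fits without the first control-plasmid library and without the first Srebf2-plasmid library, 4 were higher and 1 was lower. Ddx58, the RNA sensor RIG-I, had 76.3, 69.4 and 78.0 CPM with the Srebf2 plasmid and 48.1, 57.8 and 60.9 CPM with the control plasmid (log2 fold change 0.42, SE 0.08, adjusted p = 0.00298). The median of the same list was 0.33 with the Egr1 plasmid and 0.48 with the Jun plasmid, and it was 0.10 for Srebf2 without the first control-plasmid library.

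Stress and matrix lists showed no common direction, and their counts are to be set against the 8.63% of all tested genes that were higher and the 8.68% that were lower. Of 32 genes of the integrated stress and unfolded protein responses, 4 were higher and 4 were lower, with Ppp1r15a, the stress-induced phosphatase subunit GADD34, at 49.0, 41.6 and 50.024 CPM with Srebf2, against 69.8, 73.5 and 72.4 CPM with control (log2 fold change -0.62, adjusted p = 3.4e-05) and Hsp90b1, the endoplasmic reticulum chaperone GRP94, at 1164, 1255 and 1268 CPM with Srebf2, against 1018, 1001 and 988 CPM with control (log2 fold change 0.29, adjusted p = 0.00115). With the GC trend removed 1 of the 32 was higher and 1 was lower. Of 13 tested heat shock chaperones 3 were higher and 1 was lower, and of 31 proteasome subunits 1 was higher and 4 were lower. The 29 listed glycolysis and hypoxia genes matched 30 tested entries, of which 4 were higher and 6 were lower. Eno1, the glycolytic enzyme enolase, rose to 1279.7, 1380.1 and 1334 CPM with Srebf2, against 980.3, 898 and 977 CPM with control (log2 fold change 0.48, SE 0.05, adjusted p = 4.08e-05, 71.5% of its 31-base words unique). Of 35 extracellular matrix genes 3 were higher and 3 were lower (8.57% each), close to the shares of all tested genes. The number lower was 0 without the second control-plasmid library, 1 without the second Srebf2-plasmid library and 6 without the first Srebf2-plasmid library. Those higher were Vcan, the proteoglycan versican, Bgn, the proteoglycan biglycan, and Lox, lysyl oxidase, at 3586, 3567 and 3922 CPM with Srebf2, against 2529.7, 2993 and 3173 CPM with control (log2 fold change 0.35, SE 0.07, adjusted p = 0.00601). Both basement membrane collagens that were lower, Col4a1 and Col4a2, and Loxl3 were no longer called with the GC trend removed, where the list had 3 higher and none lower. Of 28 very large structural and scaffold proteins, which have the longest transcripts of the lists used here (median 13365 bases), 2 were higher and 5 were lower, with a median of -0.08. Plec, the linker plectin, fell to 744, 691 and 623 CPM with Srebf2, against 857, 839.9 and 859 CPM with control (log2 fold change -0.31, adjusted p = 0.00197), and its GC content is 61.2%. With the GC trend removed Plec was no longer called (log2 difference -0.13, adjusted p = 0.114), and 1 gene of the list was higher and 1 was lower. The list's number of lower genes ran from 2 to 10 when 1 library was left out, the 10 without the first Srebf2-plasmid library and 2 without the second or the third control-plasmid library or the second Srebf2-plasmid library.

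**Figure D5:**
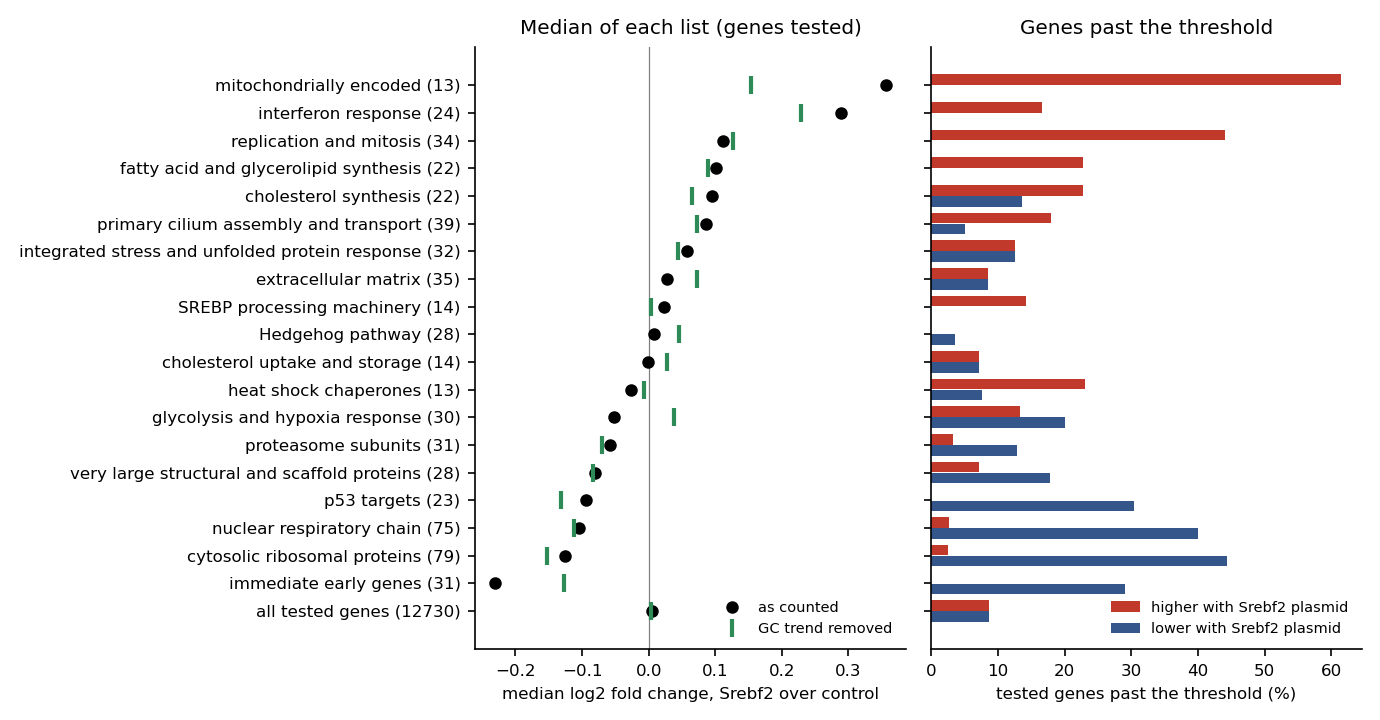
Median log2 fold change (Srebf2 plasmid over control plasmid) of each list with at least 10 tested genes, as counted and with the GC trend removed, and the percentage of its tested genes past the threshold in each direction, as counted. The mitochondrially encoded genes have the highest median (0.36) and the immediate early genes the lowest (-0.23), beside 0.01 for all tested genes.

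At the level of single transcripts 275 of 36935 passed the test (0.745%), 150 higher (0.406%) and 125 lower (0.338%), and they belonged to 248 genes, of which 120 were also called as genes. Coding transcripts made up 204 of the 275 and retained introns 18. Of the called transcripts, 39 were listed at 0 in all control-plasmid libraries and 16 in all Srebf2-plasmid libraries. In 15 genes transcripts were called in both directions. Scrib, a polarity scaffold, shows the pattern: Scrib-201 (5599 bases) was at 11.4, 13.6 and 2.59 CPM with the Srebf2 plasmid, against 0, 0.0515 and 0 CPM with the control plasmid, and Scrib-203 (5545 bases) was listed at 0 in the 3 Srebf2-plasmid libraries, against 10.3, 13.2 and 8.14 CPM with the control plasmid. The gene as a whole was at 146, 135 and 123 CPM with Srebf2, against 161, 152 and 145 CPM with control. Prickle2, a planar polarity gene, had Prickle2-204 (7679 bases) at 4.02, 4.05 and 4.06 CPM with the Srebf2 plasmid and listed at 0 with the control plasmid, and Prickle2-201 (7754 bases) listed at 0 with the Srebf2 plasmid and at 3.40, 4.07 and 3.65 CPM with the control plasmid. As a gene, Prickle2 did not differ beyond its spread, at 4.35, 4.41 and 4.07 CPM with Srebf2, against 3.68, 4.75 and 4.44 CPM with control. The tables hold no estimate of how uncertainly reads were divided between such near-equal transcripts, and without the first control-plasmid library 4 transcripts were called in all.

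The effect of the Srebf2 plasmid was also set against the mean effect of the Prrx1, Snai1, Egr1 and Jun plasmids, each against its own control, in 1 fit of the 24 transfection libraries. Of 14208 genes tested, the difference passed in 1731 (12.2%), 735 higher with Srebf2 (5.17%) and 996 lower (7.01%). Of the cholesterol synthesis list 2 were higher (Msmo1 and Idi1) and 2 were lower (Pmvk and Tm7sf2). The difference in log2 fold change was 0.32 for Msmo1 (SE 0.07, adjusted p = 0.00683), 0.27 for Idi1 (SE 0.09, adjusted p = 0.0489), -0.65 for Pmvk (SE 0.13, adjusted p = 0.00242) and -0.52 for Tm7sf2 (SE 0.14, adjusted p = 0.0176). The list's median difference was 0.04. Its own medians were 0.15 with Egr1, 0.16 with Jun, -0.07 with Prrx1 and -0.04 with Snai1, against 0.09 with Srebf2. Replication and mitosis genes had 7 higher and none lower, and immediate early genes had none higher and 8 lower. The immediate early list includes Jun and Egr1, which plasmids in that mean deliver. Jun, 1 of the 8, differed by -1.46, and it rose by 4.47 on the log2 scale with the Jun plasmid. For interferon genes, whose median difference was -0.09, 2 were higher and none was lower. With the GC trend removed, 672 genes were higher (4.74%) and 583 were lower (4.11%).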

How the data were processed

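The deposited tables hold estimated counts (expected counts) and TPM per transcript, made by the authors with kallisto 0.43.0 against mm10, per the submitters' processing notes. The strand setting, read layout and annotation release are not given in the sources used here. Of 118491 targets, 116816 matched GENCODE release M21 by versioned identifier, and the 1673 unmatched targets, 0.612% to 0.640% of counts in the 6 libraries, were not used. Tests were two-sided and run on estimated counts summed to genes and rounded.

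The main test was edgeR 4.0.16's quasi-likelihood F test (R 4.3.3, TMM scaling, robust, minimum count 10 and minimum total 15), with Benjamini-Hochberg adjustment over all tested features and a threshold of 0.05. CPM are counts scaled to library size with TMM factors. A trend was removed by fitting a lowess curve (span 0.3) of each library's deviation in log2 level on GC content or on length and passing it as an offset. Slopes used log2(CPM + 0.5) minus each gene's mean over the libraries compared. Library slopes were compared by an exact permutation test. DESeq2 1.42.0 and limma 3.58.1 (on log2(TPM + 1), with genes averaging under 1 TPM left out) were alternatives. The 31-base words of each gene's transcripts, counted over all transcripts, gave the share unique to it. A share under 90% is named beside some genes but not all. Examples without it are Fau (66.1%), mt-Nd5 (83.2%), Tm7sf2 (87.2%), Ccna2 (88.0%), Bax (88.9%) and Arl3 (89.6%). The scripts were tested on simulated data.

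Named genes are Srebf2, the 12 protein-coding genes with the largest rise and the 12 with the largest fall among those called, provided that one group averaged 5 CPM, the groups did not overlap and 90% of words were unique, every tested gene of the 3 sterol lists, up to 4 called genes of each other list by adjusted p, and Gli1, Gli2, Gli3, Ptch1 and Smo. The sequences mScarlet and GFP and the genes named as examples of opposite transcripts were chosen after their values were seen, as was Lbr for its change with the GC trend removed. Some genes that this rule names are not reported here, though the counts and medians of their lists hold them. The members and lists were chosen with earlier results of these data known. Depth was 18572126 to 21352598 estimated counts per library.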

Additional observations from a re-analysis of the deposited data

Results flagged for a closer look

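Each gene here is listed because its change with the Srebf2 plasmid differed from the mean change with the Prrx1, Snai1, Egr1 and Jun plasmids, by edgeR's quasi-likelihood test of the difference (Benjamini-Hochberg adjustment over 14208 genes). The values are differences in log2 fold change, Srebf2 plasmid minus the other plasmids, and the Prrx1 and Snai1 plasmids share controls, as do the Egr1 and Jun plasmids.

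Srebf2 itself differed by 2.03 (SE 0.06, adjusted p = 1.2e-17). Of the sequences added to the quantification index, mScarlet differed by -2.32 (SE 0.19, adjusted p = 1.7e-06), although it was also lower with the Egr1 and Jun plasmids. GFP differed by -0.40 (SE 0.08, adjusted p = 0.00129). P2rx7, the ATP-gated channel, differed by -2.89 (SE 0.26, adjusted p = 2.53e-07).

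Among sterol genes the difference was 0.32 for Msmo1, 0.27 for Idi1, -0.65 for Pmvk and -0.52 for Tm7sf2, all of cholesterol synthesis, 0.34 for the protease gene Mbtps2 (adjusted p = 0.0366) and -0.37 for the sterol carrier gene Stard3 (adjusted p = 0.0151). Among mitochondrially encoded genes it was 0.75 for mt-Nd6 (adjusted p = 0.00134), 0.75 for mt-Nd1 (adjusted p = 0.000203) and 0.83 for mt-Atp8 (adjusted p = 0.00902). The medians of the mitochondrially encoded genes with the Prrx1 and Snai1 plasmids, both -0.86, enter that mean.

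Of other genes that were higher with Srebf2, Cenpk, a centromere gene, differed by 0.82 (adjusted p = 0.00905) and Filip1l, a filamin-interacting protein gene, by 0.70 (adjusted p = 0.000262). Of those lower with Srebf2, the histone gene H2afj differed by -1.16 (adjusted p = 0.000312), the prefoldin gene Pfdn6 by -1.03 (adjusted p = 0.000441), Tmem160, which codes for a membrane protein, by -1.01 (adjusted p = 0.00271) and the mitochondrial tRNA synthetase gene Lars2 by -1.001 (adjusted p = 0.00225). Rises with the Prrx1 and Snai1 plasmids enter that mean, 0.87 and 1.06 for H2afj, 0.59 and 0.53 for Pfdn6 and 0.79 and 0.93 for Tmem160. With the Egr1 and Jun plasmids H2afj, Pfdn6 and Tmem160 changed by between -0.37 and -0.07. Jun differed by -1.46 (adjusted p = 5.2e-06), and the Jun plasmid itself is among the 4 that it was set against, where Jun changed by 4.47 on the log2 scale.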

How the results depend on the processing

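The change of Srebf2 kept its direction and its side of the threshold in all 21 alternatives, and leaving out 1 library moved its log2 fold change between 2.02 and 2.11. The number of called genes stayed within 1.5 times of 2204 with DESeq2 (1988), other scaling factors, a stricter or no filter, the length trend removed and genes with at least 90% unique 31-base words. It was 1066 with the GC trend removed, 568 with all 30 libraries in the fit, 1157 with effective lengths as offsets, 76 when the test asked for more than 1.2-fold and 1019 with limma on TPM, where 66.5% of calls were higher against 49.9%, and it ran between 996 and 2329 when 1 library was left out. The number of called transcripts was 275 and moved to 3833 with DESeq2, 182 with the GC trend removed, 115 for more than 1.2-fold, 770 with limma, 734 with the newer quasi-likelihood method of edgeR and 1238 with a stricter filter, and between 4 and 234 when 1 library was left out. The length slope difference of 0.0271 was 0.0396 with a stricter filter, 0.0455 for protein-coding genes, 0.0476 for genes with at least 90% unique words and 0.00662 with GC content as a second term, and between 0.0202 and 0.0321 when 1 library was left out. The number of genes whose change differed from that with the other plasmids, 1731, ran between 908 and 1742 when 1 library was left out. The sign of Pfkl, a glycolytic enzyme, turned: its log2 fold change was -0.23 in the main test, and it was above 0 and not called with effective lengths (0.00426, adjusted p = 0.98) and with limma (0.0510, adjusted p = 0.705). The causes of these moves were not tested. Of 98 named genes called besides Srebf2, 29 lost the call with the GC trend removed, 54 with all 30 libraries and 78 for more than 1.2-fold.

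Replicate numbers are shared between the groups but do not pair the libraries: deviations of same-numbered libraries correlated at -0.000718, -0.0144 and -0.0114 over 14208 genes, and no library of the Srebf2 plasmid correlated above 0.0238 with any control. With the replicate number as a block, 2295 genes and 5 transcripts were called, 2248 genes and 8 transcripts with the length trend also removed, and 1024 genes with the block and the GC trend removed. Some alternatives were added after seeing the data. These were genes limited to 90% unique words, Srebf2, mScarlet, GFP and P2rx7 left out, and the newer quasi-likelihood method. Removing the GC trend from transcripts, from the block or from the difference was also added then.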
